A study of Mus musculus with 20 samples.

Results

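The nuclear genes for the subunits of the 5 complexes of oxidative phosphorylation were followed in microglia, the resident macrophages of the brain, across 2 genotypes and 3 ages. Members were taken by gene symbol alone: Nduf followed by a, b, c, s or v and a digit (complex I), Sdha to Sdhd (complex II), symbols beginning Uqcr (complex III), Cox4 to Cox8 (complex IV) and symbols beginning Atp5 (complex V), with pseudogenes, antisense genes and assembly factors left out. This gave 84 of 24394 genes, of which 37 belong to complex I, 4 to complex II, 8 to complex III, 18 to complex IV and 17 to complex V. Expression passed the filter on low counts for 81 of them. Ndufs5 and Cox8c had 0 counts in all 20 libraries, and Cox7b2 had 3 counts in all, 2 in P15 T2MG and 1 in P60 Control libraries. A near-identical pseudogene, BC002163, exists for Ndufs5, so its 0 counts are uncertain and are not read as absence of the transcript. The deposited table held 0 symbols of mitochondrially encoded genes, so the mitochondrial subunits are not analysed here.

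Each library came from 1 mouse. T2MG libraries are microglia that lack TGF-beta signalling through Tgfbr2, the type II receptor of this cytokine, and Control libraries are their comparison; both were made at embryonic day 16 (E16, given as E16.5 in the series' description), postnatal day 15 (P15) and postnatal day 60 (P60), with 3, 3 and 4 mice of each genotype. The description speaks of cells without 1 copy or both copies of Tgfbr2, the genotype of the Control mice is not spelled out in the labels, and all libraries carry the same strain entry, C57Bl6; FVB. The sources used here do not give the Cre driver, if any, or the markers of the cell sort, and P60 T2MG 4 carries its genotype in its title only.

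In oxidative phosphorylation, complexes I and II take electrons from NADH and succinate, complex III passes them through cytochrome c to complex IV, which reduces oxygen, and the proton gradient that complexes I, III and IV build drives ATP synthesis by complex V. Most subunits are encoded in the nucleus, while a small catalytic set is encoded in mitochondrial DNA, so each complex needs matched supply from both genomes. Several complex IV subunits have isoforms whose use differs between tissues, among them heart and skeletal muscle forms.

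Libraries held 7437764 to 9221396 counts at E16 and 12726594 to 16526122 at P15 and P60, and the members made up 0.488% to 0.966% of these. Levels are in CPM, counts scaled to a common library size, on sizes scaled by trimmed mean of M-values. Differences are log2 fold changes of edgeR's quasi-likelihood F test over 15568 genes, and calls were made where the p adjusted by Benjamini-Hochberg lay under 0.05. Tgfbr2 itself is not analysed here, so the genotype of the libraries rests on the labels. The 10 microglia markers, among them P2ry12, summed to 3722 to 5365 CPM in E16 T2MG, 3823 to 8769 CPM in P15 T2MG and 9846 to 11239 CPM in P60 T2MG libraries, against 7176 to 14726, 32939 to 49453 and 57720 to 77988 CPM in Control libraries of the same stages, with no marker at 0 in any group, and 6, 9 and 9 of them were called lower in T2MG libraries at E16, P15 and P60. Ribosomal Rn45s took 0.342% to 0.958% of counts in E16 T2MG, against 0.985% to 1.3% in E16 Control libraries, with no overlap, and 0.0167% to 0.0474% at P15 and P60. Its part in the genotype difference at E16 was not tested, and over age it cannot be told apart from stage. One library stood apart in what follows: P60 Control 1, whose 9 neutrophil and monocyte markers summed to 6982 CPM, against 106 to 187 CPM in the other P60 Control libraries and 208 to 762 CPM in P60 T2MG libraries.

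In scaled CPM the members peaked at P15, and at P15 and P60 the T2MG libraries carried more of them than the Control libraries. The scaling factors were 1.21 to 1.42 at E16 and 0.842 to 1.02 at P15, so the rise to P15 was smaller in unscaled counts. There the members made up 0.721% to 0.906% of counts in E16 Control and 0.755% to 0.927% in P15 Control libraries, which overlapped. In T2MG libraries they made up 0.731% to 0.84% at E16 and 0.914% to 0.966% at P15. The P15 genotypes overlapped in these unscaled shares, with P15 T2MG 2 at 0.914% and P15 Control 1 at 0.927%. Of 81 members tested, 65 had their highest group mean in P15 T2MG and 64 their lowest in E16 T2MG. Summed over all members, E16 T2MG libraries held 5246, 6322 and 5207 CPM, against 7468, 5912 and 5779 CPM in E16 Control libraries, and these ranges overlapped. At P15 the sums were 10874, 9810 and 11469 CPM in T2MG libraries, against 9118, 8288 and 9203 CPM in Control libraries. In scaled CPM each P15 T2MG library lay above each P15 Control library. At P60 the sums were 9511, 7197, 8881 and 9321 CPM in T2MG libraries, against 8295, 5966, 5726 and 6326 CPM in Control libraries. P60 Control 1 was the highest Control library and lay above P60 T2MG 2, the lowest T2MG library, so the groups overlapped. The T2MG to Control ratio of mean sums was 0.88 at E16, 1.21 at P15 and 1.33 at P60, the last being 1.45 without P60 Control 1.

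**Figure D1:**
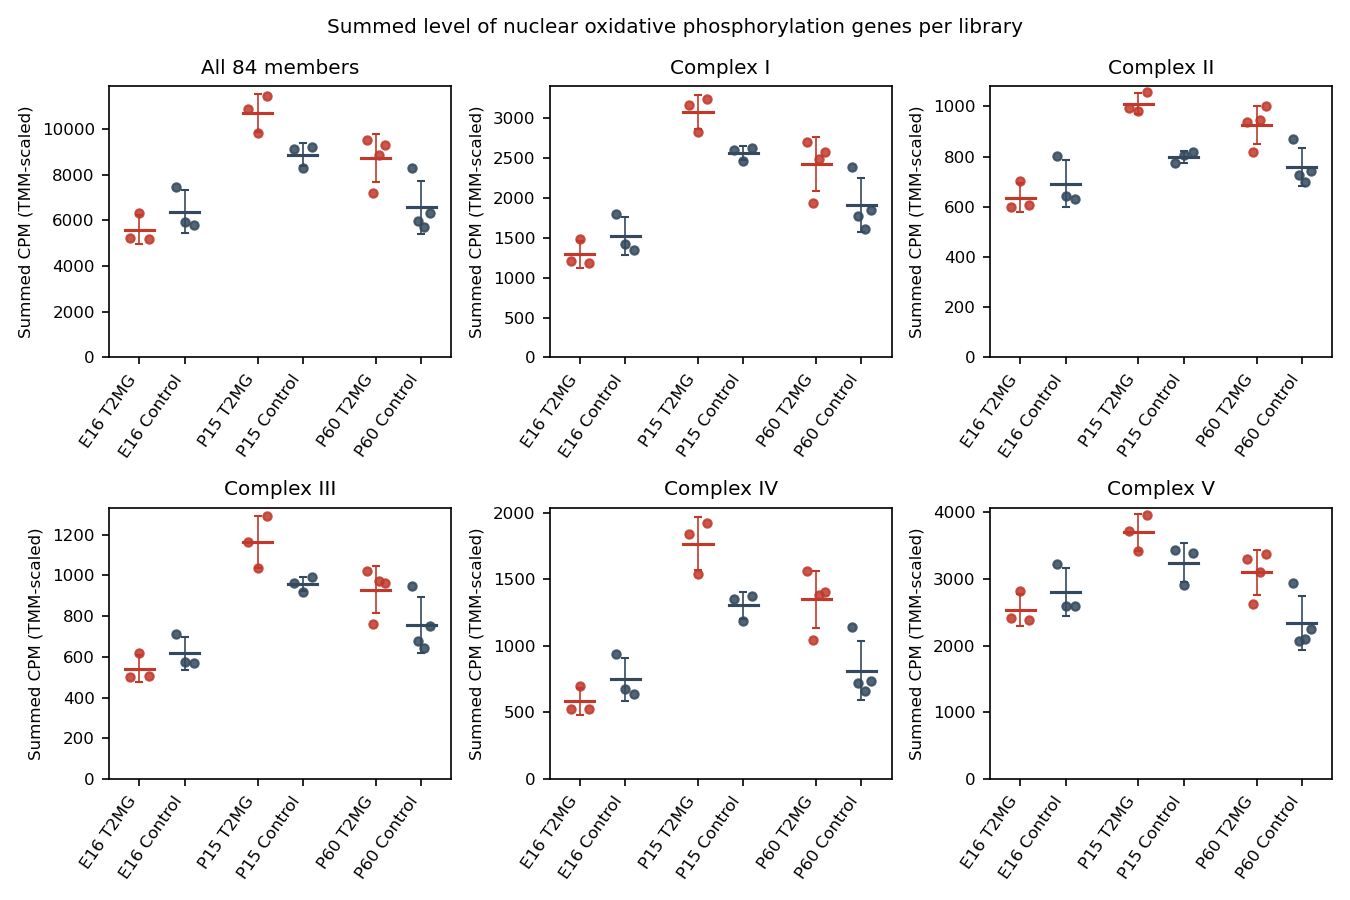
Summed CPM of all members and of each complex in every library, with 1 point per library and the mean ± SD of each group (n = 3, 3 and 4). Complex IV has the highest ratio of T2MG to Control means at P60 (1.66), with P60 T2MG libraries at 1047 to 1561 CPM and P60 Control libraries at 661 to 1142 CPM.

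Complex IV had the highest T2MG to Control ratio of these sums at P15 and P60. Its members summed to 1838, 1541 and 1920 CPM in P15 T2MG libraries, against 1349, 1189 and 1373 CPM in P15 Control libraries, with no overlap and a ratio of means of 1.35. In P60 T2MG libraries they summed to 1561, 1047, 1381 and 1406 CPM, against 1142, 720, 661 and 734 CPM in P60 Control libraries, a ratio of 1.66 that was 1.91 without P60 Control 1. P60 T2MG 2 lay under P60 Control 1 and above the other Control libraries. The P60 ratios of the other complexes were 1.27 for complex I, 1.22 for complex II, 1.23 for complex III and 1.32 for complex V. As a share of all member CPM, complex IV made up 15.7% to 16.9% in P15 T2MG, against 14.4% to 14.9% in P15 Control libraries, and 14.5% to 16.4% in P60 T2MG, against 11.5% to 13.8% in P60 Control libraries. Complex V was the largest share throughout, 43.1% to 45.9% at E16 and 34.1% to 37.7% at P15 and P60. In bulk RNA, fewer cells of a type and less RNA per cell cannot be told apart.

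Per kilobase of transcript, Atp5b, the catalytic beta subunit of the ATP synthase head, was the most abundant member in all 6 groups. It stood at 495 ± 29.5 CPM per kilobase in E16 T2MG, 544 ± 52.6 in P15 T2MG and 439 ± 49.2 in P60 T2MG libraries, against 523 ± 53, 480 ± 54.3 and 353 ± 43.1 in Control libraries of the same stages (SD, n = 3, 3 and 4). Cox4i1, the ubiquitous form of complex IV subunit 4, was second at P15 Control (377 ± 17.8 CPM per kilobase) and in both P60 groups. Cox6a1, the ubiquitous form of subunit 6a, was second in P15 T2MG libraries at 518 ± 79.8 CPM per kilobase, a level within 1 SD of Atp5b in the same libraries. The ranking uses 1 transcript length per gene, so neighbours in it are only roughly ordered.

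**Figure D2:**
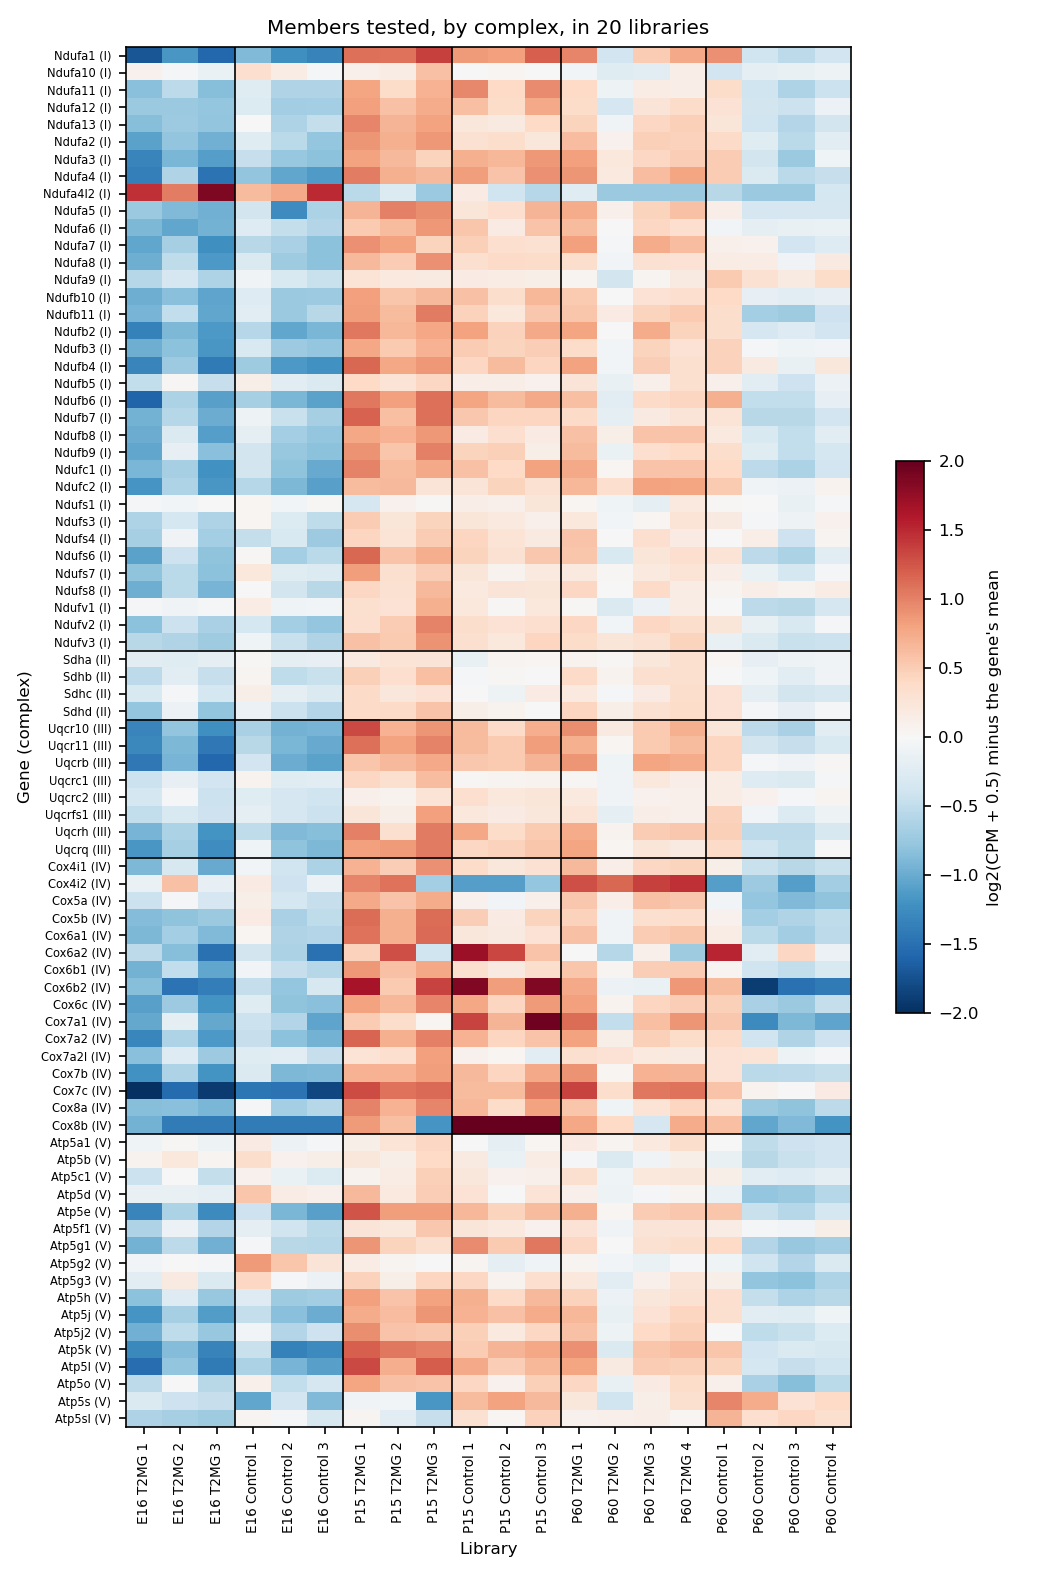
Level of 80 of the 81 tested members in each of 20 libraries, as log2(CPM + 0.5) minus the mean of the gene over libraries, with colours limited at 2 in each direction. Most members are lowest in the E16 libraries, highest in P15 T2MG, and at P60 higher in T2MG libraries and P60 Control 1 than in the other 3 Control libraries.

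At E16 few members differed between genotypes. None was called higher and 2 were called lower in T2MG libraries (0% and 2.47% of 81, where 0.527% of all genes tested were called higher and 2.67% lower). At an unadjusted p under 0.05, 0 were higher and 14 lower, and DESeq2 called 0 higher and 3 lower. The median log2 fold change of the members was -0.25, against 0.04 over all genes tested, and 74 of 81 lay below 0. Atp5g2 codes for one of the 3 proteins that mature into the same subunit c, which forms the rotating ring of the ATP synthase. It stood at 56.5, 58.4 and 57.3 CPM in T2MG libraries, against 106, 86.4 and 70.2 CPM in Control libraries. Every T2MG library was below every Control library, and the log2 fold change was -0.61 ± 0.14 (SE, edgeR adjusted p = 0.026). Ndufs7, an iron-sulfur subunit of the core of complex I, stood at 40.8, 49.5 and 40.6 CPM in T2MG libraries, against 83.7, 60.8 and 59.2 CPM in Control libraries, again with no overlap (-0.64 ± 0.16, edgeR adjusted p = 0.0391). Each call held without E16 Control 3 and was lost without any other E16 library, with adjusted p up to 0.177 for Atp5g2 and 0.267 for Ndufs7, both without E16 Control 1. In all, 4 members were called without E16 Control 3, 1 without E16 T2MG 2 and 0 without any other E16 library. Near-identical gene copies exist for Atp5g2 (Gm10175 and Gm10231), so its counts are uncertain.

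At P15, 7 members were called higher and 3 lower in T2MG libraries (8.64% and 3.7% of 81, where 11.7% of all genes tested were called higher and 12.3% lower), so neither share exceeded that of all genes. The median log2 fold change was 0.26, against 0.01 over all genes, and 69 of 81 members lay above 0. Of the 7, 4 belong to complex IV besides Cox4i2, with none from complex I (edgeR; 6 higher at an unadjusted p under 0.05, 4 in DESeq2 and 3 in limma voom) and none from complex V (1 at an unadjusted p under 0.05, 1 in DESeq2 and 0 in limma voom). Cox4i2 codes for the isoform of subunit 4 known for expression in lung and for its part in oxygen sensing. It was low throughout, at 1.59, 1.76 and 0.163 CPM in T2MG libraries, against 0, 0 and 0.127 CPM in Control libraries. The T2MG libraries held 50 counts and the Control libraries 2, a ratio of 28.4 with a 95% counting interval of 7.47 to 241 (edgeR log2 fold change 4.50 ± 1.07, adjusted p = 0.00547). Cox4i2 was the only one of the 10 whose call held when any 1 P15 library was left out. The 10 calls became 2, 3 and 2 without P15 Control 1, P15 Control 2 and P15 Control 3, 6 without P15 T2MG 1 and 1 without P15 T2MG 3.

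Among the abundant complex IV genes at P15, Cox6a1 stood at 318, 244 and 326 CPM in T2MG libraries, against 175, 169 and 182 CPM in Control libraries, with no overlap (0.76 ± 0.22, edgeR adjusted p = 0.02). Cox5a, a matrix-side subunit of complex IV, stood at 169, 149 and 168 CPM in T2MG libraries, against 106, 96.1 and 108 CPM in Control libraries (0.65 ± 0.20, edgeR adjusted p = 0.0278). Both groups were tight and apart. Cox5b, which binds zinc, and Cox7a2l, a subunit 7a relative known for joining complexes III and IV into supercomplexes, were also called, at 0.62 ± 0.22 and 0.54 ± 0.17 (edgeR adjusted p = 0.0493 and 0.0314). In complex II, Sdhb, the iron-sulfur subunit of succinate dehydrogenase, stood at 223, 202 and 244 CPM in T2MG libraries, against 158, 163 and 161 CPM in Control libraries (0.47 ± 0.14, edgeR adjusted p = 0.0206). In complex III, Uqcrc1, a core protein of the complex, stood at 447, 421 and 515 CPM, against 344, 348 and 354 CPM (0.40 ± 0.14, edgeR adjusted p = 0.0415). Every T2MG library exceeded every Control library for each of these genes. Each of these 6 calls was lost without P15 Control 1, P15 Control 2, P15 Control 3 or P15 T2MG 3, with adjusted p up to 0.0678 for Cox6a1, 0.0887 for Cox5a, 0.159 for Cox5b, 0.179 for Cox7a2l, 0.0785 for Sdhb and 0.152 for Uqcrc1.

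The 3 lower calls at P15 were a muscle isoform and a pair of genes that carry an Atp5 symbol only. Cox8b, the heart and muscle form of subunit 8, stood at 1.89, 1.5 and 0.0817 CPM in T2MG libraries, against 10.3, 7.11 and 10.8 CPM in Control libraries, with no overlap (-3.00 ± 0.98, edgeR adjusted p = 0.0361, and up to 0.0905 with 1 library left out). Atp5s (renamed Dmac2l) and Atp5sl (renamed Dmac2) are not structural parts of the ATP synthase, and Dmac2 is known from human cells as an assembly factor of complex I. Atp5s stood at 8.09, 8.16 and 3.51 CPM in T2MG libraries, against 13.5, 15.2 and 13.6 CPM in Control libraries (-1.10 ± 0.31, edgeR adjusted p = 0.0147, and 0.0588 without P15 T2MG 3). Atp5sl was lower by less, -0.48 ± 0.16 (edgeR adjusted p = 0.0359), and its groups overlapped.

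The most calls between genotypes were made at P60, where each group had 4 libraries, against 3 at E16 and P15. In T2MG libraries 36 were called higher and 2 lower (44.4% and 2.47% of 81, where 23.5% of all genes tested were called higher and 15.7% lower). The median log2 fold change was 0.51, against 0.14 over all genes, and 77 of 81 members lay above 0. By complex, 13 of 36 members of complex I were called higher, 1 of 4 of complex II, 4 of 8 of complex III, 11 of 16 of complex IV and 7 of 17 of complex V. The medians were 0.36, 0.29, 0.48, 0.76 and 0.52 in the same order. Without P60 Control 1 the median was 0.70, and 61 members were called higher and 0 lower (where 4833 of 15542 genes were called higher and 2521 lower), and 14 of 16 members of complex IV were among them. The count of calls was 24 without P60 Control 2, 21 without P60 Control 3 and 25 without P60 T2MG 1.

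**Figure D3:**
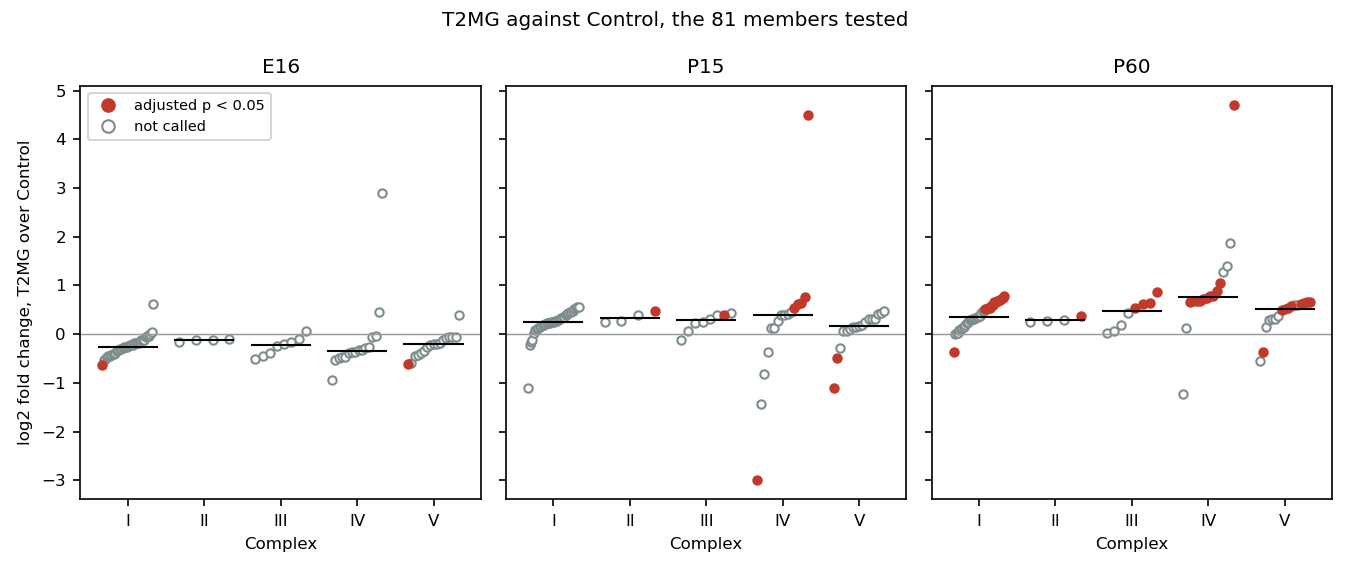
Log2 fold change of T2MG over Control for each tested member at E16, P15 and P60, by complex, with filled red points for an edgeR adjusted p under 0.05 and a black line at the median of the complex. The medians lie below 0 at E16 (-0.34 in complex IV) and above 0 at P15 (0.40) and P60 (0.76).

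Within complex I, the calls at P60 fell on the accessory subunits, which surround the catalytic core: 13 of 29 tested were higher (median 0.48; Ndufa4 and Ndufa4l2 are counted here by their symbols), and 0 of the 7 core subunits (median 0.14; largest log2 fold change 0.35). These role groups were drawn up after the values were seen and carry no test. Core transcripts were 870 to 2626 bases long and most accessory ones were under 1000, so role was not separated from transcript length. Ndufv3, an accessory subunit next to the NADH site, stood at 59, 53.7, 56.3 and 62 CPM in T2MG libraries, against 40.7, 37.1, 33.1 and 33.7 CPM in Control libraries. No library overlapped, and the log2 fold change was 0.68 ± 0.12 (edgeR adjusted p = 0.000287, at most 0.00162 with 1 library left out). Ndufa7, another accessory subunit, stood at 76.3, 41.8, 72.2 and 66.5 CPM in T2MG libraries, against 45.9, 45.4, 32.7 and 35.8 CPM in Control libraries, and only P60 T2MG 2 fell among the Controls (0.68 ± 0.18, edgeR adjusted p = 0.00547). Ndufa4, named for complex I and now placed in complex IV, stood at 157, 97.1, 131 and 148 CPM, against 121, 69.5, 58.3 and 61.8 CPM, with P60 T2MG 2 under P60 Control 1 (0.78 ± 0.23, edgeR adjusted p = 0.0126).

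No core subunit of complex I passed the test at P60. Ndufs1, its largest iron-sulfur subunit, stood at 93.7, 85.8, 79.4 and 104 CPM in P60 T2MG libraries, against 92.8, 91.7, 82.2 and 89.5 CPM in P60 Control libraries (0.03 ± 0.10, edgeR adjusted p = 0.863). Ndufv1, which binds NADH, stood at 84.9, 68.2, 77.3 and 93.3 CPM in T2MG libraries, against 82.9, 58.4, 57 and 66.5 CPM in Control libraries, with overlapping groups (0.29 ± 0.13, edgeR adjusted p = 0.0925). It passed without P60 Control 1 (0.0124) or P60 T2MG 2 (0.0479). Ndufa9, an accessory subunit at the joint of the arms, went the other way and is named here because it was the only lower call of complex I. It stood at 116, 86.6, 116 and 127 CPM in T2MG libraries, against 161, 138, 127 and 144 CPM in Control libraries (-0.36 ± 0.12, edgeR adjusted p = 0.0238). P60 T2MG 4 equalled P60 Control 3 at this rounding, and the call was lost without P60 T2MG 2 (adjusted p = 0.082) or P60 Control 1 (0.0616). Atp5sl was the other lower call, at -0.37 ± 0.14 (edgeR adjusted p = 0.042), and it was lost on leaving out any of 7 of the 8 libraries.

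In complex II, Sdhb stood at 210, 168, 201 and 200 CPM in P60 T2MG libraries, against 159, 151, 137 and 153 CPM in P60 Control libraries, with no overlap (0.37 ± 0.12, edgeR adjusted p = 0.0208). The call was lost without P60 Control 3 (adjusted p = 0.0649) or P60 T2MG 1 (0.0599). Sdha, the flavin subunit that oxidises succinate, stood at 354, 344, 393 and 421 CPM in T2MG libraries, against 347, 299, 313 and 321 CPM in Control libraries (0.24 ± 0.10, edgeR adjusted p = 0.0538, and 0.0337 without P60 Control 1 or 0.0382 without P60 T2MG 2). In complex III, 4 of 5 small subunits were called higher, and 0 of 3 of the core proteins and iron-sulfur subunit (log2 fold changes at most 0.19), a count over role groups with no test between them. The small subunits have transcripts of 434 to 535 bases and the other 3 of 1363 to 1896, so role and length cannot be told apart here. Uqcr10, a small membrane subunit, stood at 90.9, 54.1, 69.1 and 78.2 CPM in T2MG libraries, against 56.6, 32.9, 30.3 and 41.1 CPM in Control libraries (0.86 ± 0.20, edgeR adjusted p = 0.00278). Its groups met only at P60 T2MG 2 and P60 Control 1. Uqcr11, another small subunit, was higher by 0.63 ± 0.19 (edgeR adjusted p = 0.0157), a call lost without P60 Control 2 (0.0528), P60 Control 3 (0.0549) or P60 T2MG 1 (0.0502). Uqcrfs1, the Rieske iron-sulfur protein, stood at 119, 86.6, 108 and 106 CPM in T2MG libraries, against 135, 94.5, 81.5 and 91.4 CPM in Control libraries, fully overlapping (0.06 ± 0.16, edgeR adjusted p = 0.803).

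Complex IV held the clearest single gene. Cox5a lies on chromosome 9 (57521274 to 57532426, plus strand, mm10). In P60 T2MG libraries it stood at 146, 110, 151 and 145 CPM, against 96.3, 58.4, 53.9 and 57 CPM in P60 Control libraries. The groups did not overlap, the log2 fold change was 1.06 ± 0.18 (edgeR adjusted p = 0.000141), and the call held without any 1 library (adjusted p at most 0.000901). A noncoding gene on the opposite strand, Gm26631, shares 41.7% of the Cox5a exon bases, and the sources used here do not say whether counting used strand, so their reads cannot be told apart. Cox4i1 stood at 360, 252, 309 and 313 CPM in T2MG libraries, against 249, 169, 156 and 169 CPM in Control libraries, every T2MG library above every Control library (0.73 ± 0.18, edgeR adjusted p = 0.00393). Cox6a1 stood at 224, 142, 211 and 220 CPM in T2MG libraries, against 166, 102, 91.4 and 104 CPM in Control libraries, with P60 T2MG 2 below P60 Control 1 (0.78 ± 0.19, edgeR adjusted p = 0.00384). Cox7b, a small membrane subunit, stood at 74.6, 40.7, 64.7 and 63.6 CPM, against 48.3, 27.1, 27.5 and 28.2 CPM, with the same pair overlapping (0.89 ± 0.22, edgeR adjusted p = 0.0035). Of the 11 complex IV members that are not restricted isoforms, 10 were called higher (median 0.73). The exception was Cox7a2l, at 76.8, 74.8, 70 and 69.7 CPM in T2MG libraries, against 75, 74.5, 57.1 and 59.8 CPM in Control libraries, with overlapping groups (0.13 ± 0.15, edgeR adjusted p = 0.522).

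Complex V was higher in several of its parts, 2 of 5 tested subunits of the F1 head, 3 of 7 of the stalk and membrane part and 2 of 3 genes of subunit c. Atp5a1, the alpha subunit of the head, stood at 759, 706, 774 and 868 CPM in P60 T2MG libraries, against 682, 477, 512 and 523 CPM in P60 Control libraries. No library overlapped (0.50 ± 0.13, edgeR adjusted p = 0.00428, at most 0.0199 with 1 library left out). Atp5b, its partner in the head, stood at 862, 718, 837 and 947 CPM in T2MG libraries, against 791, 597, 643 and 675 CPM in Control libraries, and did not pass the test (0.31 ± 0.13, edgeR adjusted p = 0.0575). It passed without P60 Control 1 (0.0206) or P60 T2MG 2 (0.0325). Atp5j2, the f subunit of the membrane part, was higher by 0.66 ± 0.17 (edgeR adjusted p = 0.00445). For subunit c, Atp5g1 and Atp5g3 were called higher (0.61 ± 0.23 and 0.57 ± 0.20, edgeR adjusted p = 0.0465 and 0.0271), and Atp5g2 was not (0.30 ± 0.12, edgeR adjusted p = 0.0651, and 0.0172 without P60 Control 1). P60 Control 1 was far above its group for both called genes, at 123 CPM for Atp5g1 and 137 CPM for Atp5g3, against 54.6 to 61.5 and 71.7 to 81.9 CPM in the other Control libraries. Both calls were lost without any of P60 Control 2, P60 Control 3, P60 Control 4, P60 T2MG 1 or P60 T2MG 4, and that of Atp5g1 also without P60 T2MG 3 (0.0813), with adjusted p up to 0.137 for Atp5g1 and 0.0886 for Atp5g3.

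The genotype difference itself moved with age. Between E16 and P15 the T2MG to Control difference was higher at P15 for 15 members and lower for 1 (18.5% and 1.23% of 81, where 8.97% of all genes were called higher and 7.31% lower), with a median of 0.54, against -0.02 over all genes. Ndufs7 gave the smallest p, 1.03 ± 0.23 (edgeR adjusted p = 0.00595), and was the only 1 of the 16 called with any single library left out. Its libraries at P15 stood at 129, 89.5 and 101 CPM in T2MG, against 85, 75.4 and 82.6 CPM in Control, above rather than below. Cox6a1 (1.22 ± 0.32, edgeR adjusted p = 0.0148) and Cox5b (1.15 ± 0.31, edgeR adjusted p = 0.0192) followed in complex IV. Leaving out E16 Control 1, the highest E16 library in the sums of all 5 complexes, cut the 16 calls to 1. The other counts that fell past 1.5 times were 5 without E16 T2MG 1, 6 without E16 T2MG 3, 9 without P15 T2MG 3 and 8 without P15 Control 1, P15 Control 2 or P15 Control 3.

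Between P15 and P60, 1 member was called higher in this difference and 0 lower (1.23% and 0% of 81, where 5.63% of all genes were called higher and 2.4% lower; edgeR, with 6 higher and 1 lower at an unadjusted p under 0.05, 1 and 1 in DESeq2 and 2 and 0 in limma voom). The call was Cox8b, at 4.39 ± 1.30 (edgeR adjusted p = 0.0491). It was lost without any of the 14 P15 and P60 libraries except P60 Control 1, whose removal gave 13 calls, all higher, beside 2144 of 15542 genes higher and 521 lower. The genotype and age comparisons share libraries, so their values stand side by side and are not independent of each other.

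More members were called between E16 and P15 than between genotypes at any age. In Control libraries, 59 of 81 members were called higher at P15 than at E16 and 3 lower (72.8% and 3.7%, where 24% of all genes were called higher and 26.7% lower), with a median of 0.86, against -0.02 over all genes. In T2MG libraries, 71 were higher at P15 than at E16 and 1 lower (87.7% and 1.23%, where 29.5% of all genes were called higher and 31.3% lower), with a median of 1.5, against -0.05 over all genes. Complexes III and IV moved furthest, with medians of 1.84 and 1.81 in T2MG and 1.18 and 1.16 in Control libraries. Complex II moved least, at 0.70 in T2MG and 0.21 in Control libraries. The 3 lower Control genes were Ndufa4l2, Cox4i2 and Atp5g2, and the lower T2MG gene was Ndufa4l2. These were singled out after their values were seen.

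Cox7c, a small complex IV subunit, changed by the most among the abundant members. It stood at 88.5, 76.2 and 78.7 CPM in P15 T2MG libraries, against 6.84, 12 and 9.12 CPM in E16 T2MG libraries (3.12 ± 0.25, edgeR adjusted p = 5.34e-08). In Control libraries it stood at 55.7, 55.7 and 73.5 CPM at P15, against 12.8, 12.5 and 9.78 CPM at E16 (2.40 ± 0.24, edgeR adjusted p = 1.16e-06). The ages were far apart in both genotypes, although a near-identical gene, Gm10012, makes the Cox7c counts uncertain. Uqcr11 stood at 104, 84.9 and 96.8 CPM in P15 T2MG libraries, against 19.5, 25.6 and 17.6 CPM in E16 T2MG libraries (2.19 ± 0.24, edgeR adjusted p = 9.05e-07). Ndufa6, an accessory subunit of complex I, stood at 41.6, 45 and 53.1 CPM in P15 T2MG libraries, against 15.2, 13.8 and 14.7 CPM in E16 T2MG libraries (1.68 ± 0.17, edgeR adjusted p = 4.36e-07). Atp5j, coupling factor 6 of the stalk, was 1.72 ± 0.21 higher in T2MG (edgeR adjusted p = 2.58e-06) and 1.43 ± 0.20 higher in Control libraries (edgeR adjusted p = 2.73e-05). Atp5l, subunit g, was 2.34 ± 0.26 and 1.52 ± 0.25 higher (edgeR adjusted p = 1.34e-06 and 0.000125), with 9 near-identical genes. None of these calls was lost with 1 library left out.

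Several catalytic subunits had smaller changes over the same interval. Atp5a1 stood at 739, 817 and 910 CPM in P15 T2MG libraries, against 640, 692 and 632 CPM in E16 T2MG libraries, with no overlap but outside the threshold (0.33 ± 0.15, edgeR adjusted p = 0.0596, and 0.0407 without P15 T2MG 1). In Control libraries its change was -0.05 ± 0.15 (edgeR adjusted p = 0.785). Ndufs1 was at -0.03 ± 0.12 in T2MG and 0.16 ± 0.12 in Control libraries (edgeR adjusted p = 0.838 and 0.263). Of the 7 core subunits of complex I, 6 were called higher in T2MG libraries (median 0.94) and 3 in Control libraries (median 0.25). Of the 29 accessory subunits, 27 were called higher in T2MG (median 1.65) and 26 in Control libraries (median 1.00). In the F1 head, 3 of 5 were called higher in T2MG (median 0.53) and 1 of 5 in Control libraries (median -0.05). Transcript length, treated below, was not separated from role in these counts.

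No member was called higher at P60 than at P15 in either genotype. In T2MG libraries 0 were called higher and 8 lower at P60 than at P15 (0% and 9.88% of 81, where 10.8% of all genes were called higher and 9.4% lower; edgeR, with 0 higher and 31 lower at an unadjusted p under 0.05, 0 and 26 in DESeq2 and 0 and 15 in limma voom), with a median of -0.34, against 0.06 over all genes. The share of lower members in T2MG libraries was near that of all genes. In Control libraries 0 were called higher and 36 lower (0% and 44.4%, where 5.61% of all genes were called higher and 13% lower; edgeR, with 0 and 51 at an unadjusted p under 0.05, 0 and 42 in DESeq2 and 0 and 46 in limma voom), with a median of -0.57, against -0.01. Whether these falls differ between genotypes is the test of the difference given above, with 1 call. The Control count was 53 without P60 Control 1 and between 8 and 18 without P15 Control 1, P15 Control 3, P60 Control 2, P60 Control 3 or P60 Control 4. The T2MG count was 1 without P15 T2MG 3, 2 without P60 T2MG 2, 3 without P15 T2MG 1, 4 without P60 T2MG 3 and 5 without P60 T2MG 4.

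Atp5g1 stood at 123, 61.5, 54.6 and 57.3 CPM in P60 Control libraries, against 179, 133 and 194 CPM in P15 Control libraries, with no overlap (-1.19 ± 0.25, edgeR adjusted p = 0.00506). Ndufv3 stood at 40.7, 37.1, 33.1 and 33.7 CPM in P60 Control libraries, against 56.9, 52.7 and 61.1 CPM in P15 Control libraries (-0.65 ± 0.13, edgeR adjusted p = 0.00398). Cox8a, the ubiquitous form of subunit 8, stood at 128, 63.2, 60.7 and 73.9 CPM at P60, against 168, 137 and 187 CPM at P15 in Control libraries (-1.01 ± 0.23, edgeR adjusted p = 0.00724). In all 3 genes each P60 Control library lay below each P15 Control library, and these calls held with any 1 library left out. In T2MG libraries the strongest fall by p was Ndufb7, an accessory subunit of complex I, at 69.5, 47.1, 60.7 and 64.2 CPM at P60, against 121, 81.4 and 115 CPM at P15 (-0.81 ± 0.21, edgeR adjusted p = 0.0114, and 0.0505 without P15 T2MG 1).

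Among the isoform pairs of complex IV, the ubiquitous form made up at least 90% of the CPM per kilobase of each pair in all libraries, and the restricted forms varied with age and genotype. Cox4i2 lies on chromosome 2 (152754173 to 152765037, plus strand, mm10). At P60 it stood at 2.11, 1.87, 2.26 and 2.44 CPM in T2MG libraries, against 0, 0.142, 0 and 0.16 CPM in Control libraries, 114 counts against 4, a ratio of 30 with a 95% counting interval of 11.4 to 112 (edgeR log2 fold change 4.71 ± 0.90, adjusted p = 0.000456). The call held without any 1 library (adjusted p at most 0.00192). At E16 its groups overlapped, at 0.475, 1.11 and 0.456 CPM in T2MG, against 0.693, 0.304 and 0.485 CPM in Control libraries (0.45 ± 0.88, edgeR adjusted p = 0.828). In P60 T2MG libraries Cox4i2 was 0.603% to 0.8% of the CPM per kilobase of the Cox4i1 and Cox4i2 pair, against 0% to 0.0978% in P60 Control libraries.

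Cox8b lies on chromosome 7 (140898945 to 140900446, minus strand, mm10) and peaked in P15 Control libraries. It had 0 counts in all 3 E16 Control libraries and 437 in the P15 Control libraries, at least 102-fold higher at P15 when the 0 is set to the floor of 3 counts over the group. At P15 it made up 0.0595% to 1.35% of the CPM per kilobase of the Cox8a and Cox8b pair in T2MG, against 7.33% to 8.53% in Control libraries. At P60 it stood at 1.76, 1.25, 0.546 and 1.72 CPM in T2MG libraries, against 1.52, 0.142, 0.217 and 0.08 CPM in Control libraries, with P60 Control 1 among the T2MG values (1.40 ± 0.87, edgeR adjusted p = 0.218). Without P60 Control 1 it was 3.08 (edgeR adjusted p = 0.00867). Cox7a1 and Cox6b2, a heart and muscle form and a testis form, followed the same course in Control libraries. Cox7a1 stood at 2.58, 1.42 and 4.14 CPM in P15 Control libraries, with 0.0808 to 0.396 CPM at E16 and 0 to 1.25 CPM at P60. Cox6b2 stood at 12, 5.69 and 12 CPM at P15, with 1.52 to 2.26 CPM at E16 and 0.426 to 4.85 CPM at P60, the top P60 value of both genes being P60 Control 1. The fall of Cox7a1 (-2.83 ± 0.92, edgeR adjusted p = 0.0398) was lost without any of P15 Control 1, P15 Control 3, P60 Control 2, P60 Control 3 or P60 Control 4 (up to 0.137). Cox6a2, the heart and muscle form of subunit 6a, reached 4.09 CPM at most. Its T2MG to Control differences did not pass the test at any age, with adjusted p of 0.231 to 0.897 in edgeR.

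**Figure D4:**
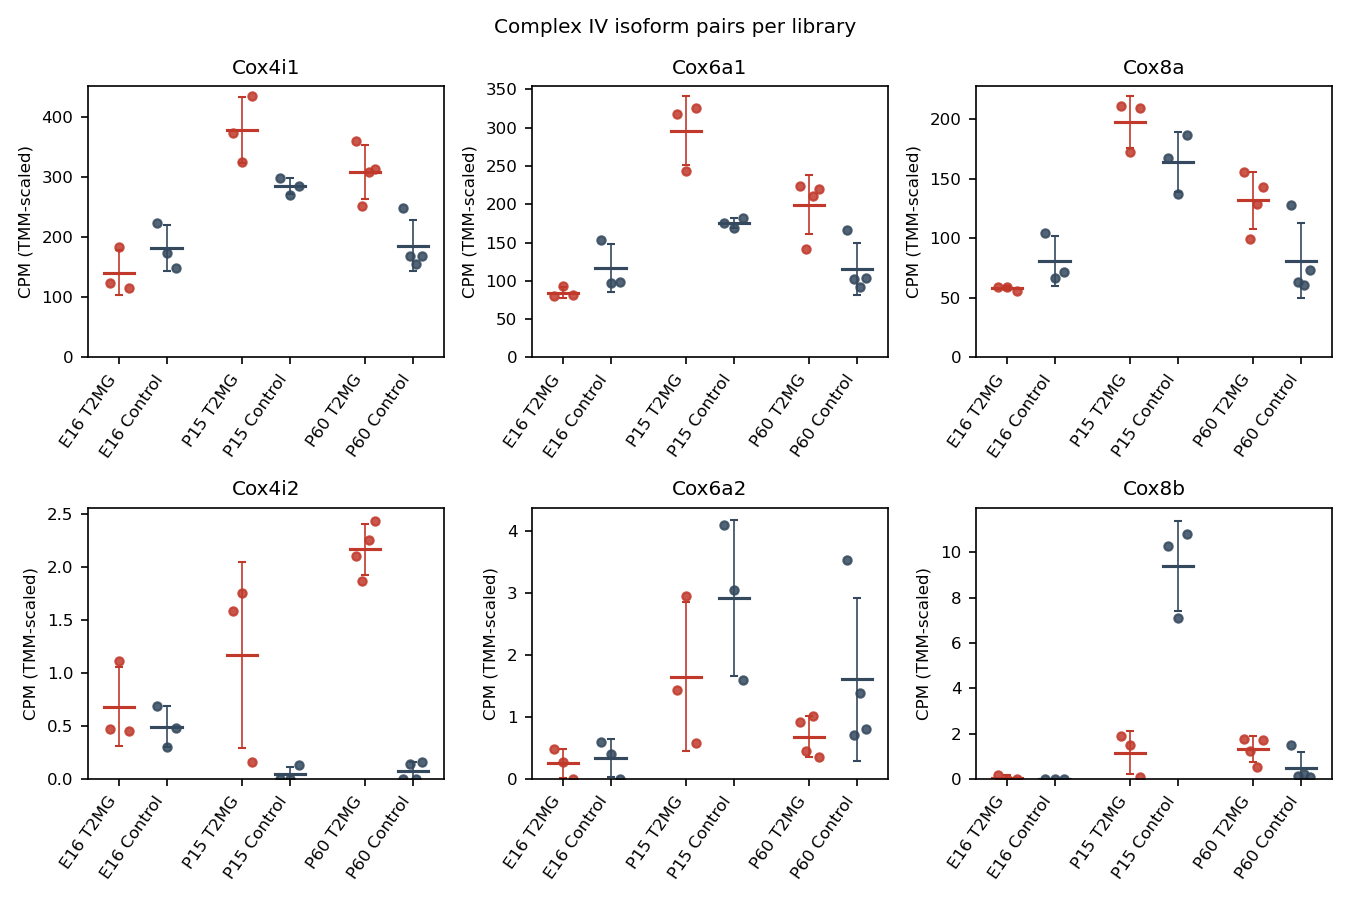
CPM of the ubiquitous isoforms Cox4i1, Cox6a1 and Cox8a over the restricted isoforms Cox4i2, Cox6a2 and Cox8b in each library, with the mean ± SD of each group (n = 3, 3 and 4). Cox8b is highest in P15 Control libraries (7.11 to 10.8 CPM) and Cox4i2 in P60 T2MG libraries (1.87 to 2.44 CPM).

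Ndufa4l2, the hypoxia-associated relative of Ndufa4, was an E16 transcript in both genotypes. It had 60 counts in E16 T2MG and 40 in E16 Control libraries, and 3 to 10 counts in each later group. Its fall to P15 was -4.15 ± 1.08 in T2MG (edgeR adjusted p = 0.00329) and -2.43 ± 0.98 in Control libraries (edgeR adjusted p = 0.0474). The Control call was lost without any of the 3 E16 Control libraries, P15 Control 2 or P15 Control 3 (adjusted p up to 0.165). The shares of the 3 genes of subunit c also varied with age. Per kilobase, Atp5g3 was the highest and Atp5g1 the lowest in all 20 libraries. This order depends on the lengths used, 2676 bases for Atp5g1, 586 for Atp5g2 and 718 for Atp5g3. In CPM, Atp5g1 stood at 179, 133 and 194 in P15 Control libraries, against 168, 132 and 159 for Atp5g3. A near-identical copy of Atp5g1, Gm10039, makes its counts uncertain. Of the CPM per kilobase of the 3 genes, Atp5g1 made up 6.77% to 7.45% in E16 T2MG and 6.85% to 7.68% in E16 Control libraries. At P15 it made up 11.4% to 15.3% in T2MG and 15.5% to 18.7% in Control libraries. Atp5g2 made up 30.9% to 37.7% in E16 T2MG, against 39.4% to 42.9% in E16 Control libraries, with no overlap. At P15 its shares overlapped, at 26% to 30.5% in T2MG and 24.3% to 27.2% in Control libraries.

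Promoters of the pair Cox8a and Cox8b and of Cox6a1 and Uqcr11 are shown because of the genotype difference at P15. There Cox8a, Cox6a1 and Uqcr11 had higher means in T2MG libraries, like most members, while Cox8b was lower. Only Cox6a1 and Cox8b were called among them. Cox8a and Uqcr11 were not called at P15, and their groups overlapped. Over age in Control libraries Cox8b moved with most members, higher at P15 than at E16 and lower at P60 than at P15. They run from 250 bases before to 50 bases after the annotated start, from RefSeq on GRCm38.p6, 5′ to 3′ on the strand of the gene. Capitals mark matches, on either strand, to GCGCATGC (the core of the motif of NRF1, a regulator of nuclear genes for mitochondrial proteins), CCGGAAG (ETS family factors such as GABP) or AAGATGGC (YY1). The Cox6a1 promoter is chr5:115348909-115349208 on the minus strand, that of Uqcr11 chr10:80406772-80407071 (minus), that of Cox8a chr19:7217567-7217866 (minus) and that of Cox8b chr7:140900397-140900696 (minus).
Cox6a1: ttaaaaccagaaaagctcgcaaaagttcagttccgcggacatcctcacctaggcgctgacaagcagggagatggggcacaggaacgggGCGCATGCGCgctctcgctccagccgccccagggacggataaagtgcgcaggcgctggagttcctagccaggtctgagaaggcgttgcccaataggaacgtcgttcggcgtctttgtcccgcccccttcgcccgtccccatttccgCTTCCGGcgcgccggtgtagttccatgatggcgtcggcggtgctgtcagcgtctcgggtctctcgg
Uqcr11: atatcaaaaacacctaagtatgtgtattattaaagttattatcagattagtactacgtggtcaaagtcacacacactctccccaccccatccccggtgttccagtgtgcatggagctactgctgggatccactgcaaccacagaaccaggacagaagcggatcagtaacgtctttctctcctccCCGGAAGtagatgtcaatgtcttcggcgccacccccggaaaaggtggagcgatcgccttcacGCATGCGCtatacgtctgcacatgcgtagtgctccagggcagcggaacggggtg
Cox8a: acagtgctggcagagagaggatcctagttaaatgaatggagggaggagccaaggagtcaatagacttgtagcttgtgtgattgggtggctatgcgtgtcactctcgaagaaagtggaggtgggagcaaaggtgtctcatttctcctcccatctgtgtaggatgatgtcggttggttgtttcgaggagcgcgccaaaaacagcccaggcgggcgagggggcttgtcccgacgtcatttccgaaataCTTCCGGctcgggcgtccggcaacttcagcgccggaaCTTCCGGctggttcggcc
Cox8b: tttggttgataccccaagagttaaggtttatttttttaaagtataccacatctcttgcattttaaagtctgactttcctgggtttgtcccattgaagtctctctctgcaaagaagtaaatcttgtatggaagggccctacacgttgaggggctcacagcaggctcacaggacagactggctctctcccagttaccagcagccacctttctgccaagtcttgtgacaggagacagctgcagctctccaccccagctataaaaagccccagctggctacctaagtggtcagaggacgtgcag
The capitals in Cox6a1 are an NRF1 core read on both strands and an ETS match, those in Uqcr11 an ETS match and an NRF1 core, and those in Cox8a a pair of ETS matches. The Cox8b window held none of the 3 motifs, which says only that these letters are not in it. Of the members, 69 genes with 75 promoters matched the RefSeq table by symbol. At least 1 motif lay in 32 of the 75 (42.7%), against 4368 of 32851 promoters in the table (13.3%). The NRF1 core was in 13.3% of member promoters and 2.71% of all, CCGGAAG in 21.3% and 8.86%, and AAGATGGC in 16% and 2.75%. The member promoters are part of the full table, and a match is a description of letters, not a bound site.

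From E16 to P15, members with short transcripts moved furthest, as did short transcripts at large. Under 1000 bases lay 54 of the 81 members, and 27 lay at or above. From E16 to P15 the median log2 fold change was 1.74 for short and 0.76 for long members in T2MG libraries, while other genes of the same classes had 1.02 and -0.15. In Control libraries it was 1.10 and 0.40 for members, and 0.48 and -0.08 for other genes. Across the 81 members, Spearman's rho between log2 fold change and length was -0.71 in T2MG and -0.59 in Control libraries, a description over genes that share libraries and are not independent replicates. Over other genes it was -0.43 and -0.31. From P15 to P60, rho was 0.30 in T2MG and 0.58 in Control libraries over members, and 0.17 and 0.06 over other genes. At P60 the genotype difference had medians of 0.60 for short and 0.28 for long members, against 0.22 and 0.12 for other genes. Of the 54 short members 29 were called higher at P60, and of the 27 long members 7, where 26% of other short genes were called higher. Spearman's rho of this difference with length was -0.56 over members and 0.01 over other genes. A length was found for 96.4% of genes tested. Whether transcript length in the library preparation had a part in these differences was not tested.

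**Figure D5:**
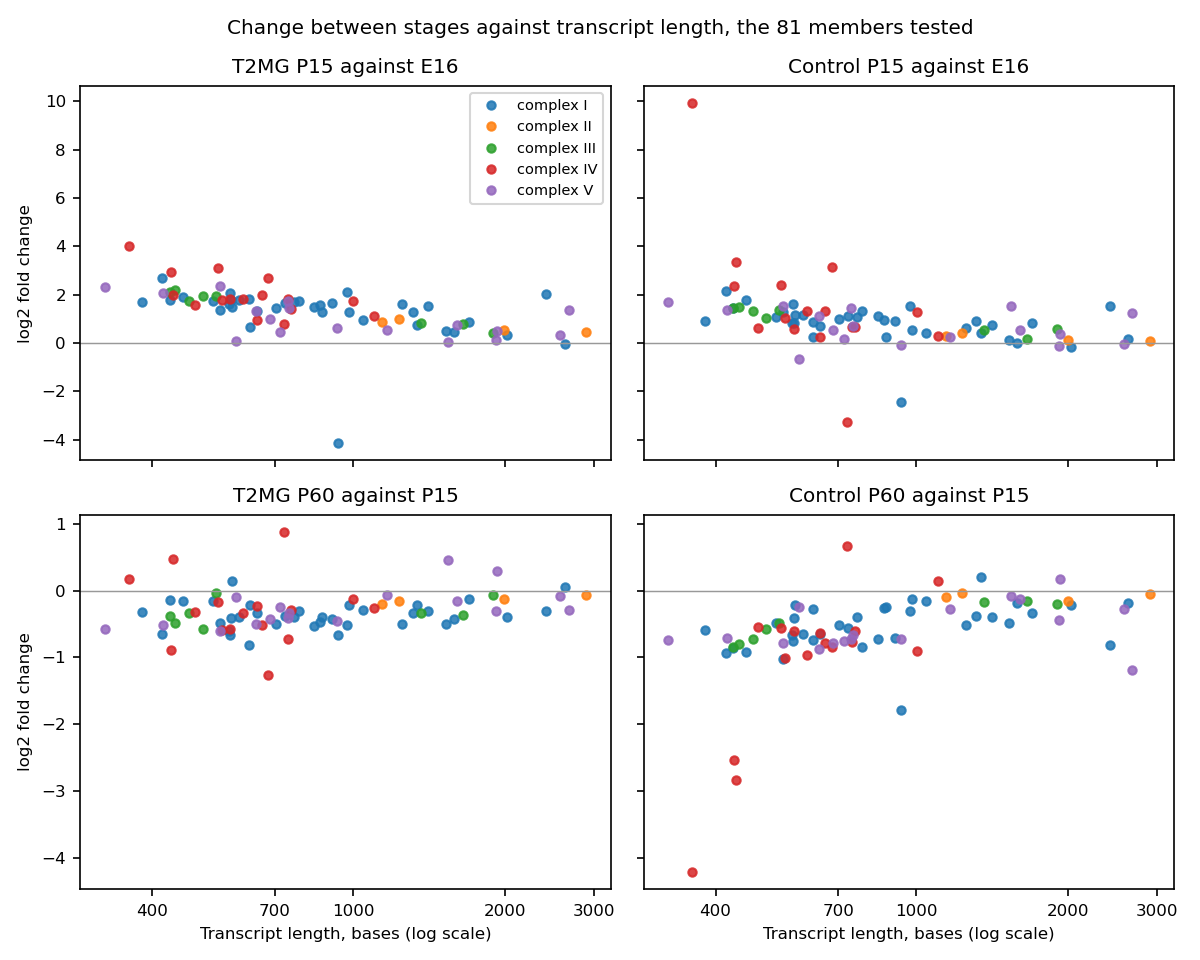
Log2 fold change between ages against transcript length in bases (log axis) for 81 members, in 4 panels for P15 against E16 and P60 against P15 in each genotype, coloured by complex. Short members lie highest from E16 to P15 (median 1.74 under 1000 bases in T2MG) and lowest from P15 to P60 (median -0.71 in Control).

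Other genes of mitochondrial energy supply gave lower as well as higher calls, as did all genes tested. Of all genes tested, 23.5% were called higher and 15.7% lower at P60, 11.7% and 12.3% at P15, and 0.527% and 2.67% at E16. The counts between genotypes in the lists below are to be read beside these shares. At E16, edgeR called 0 genes in the first 6 lists below; at an unadjusted p under 0.05 the lower genes there were 3 assembly factors, 4 tricarboxylic acid cycle genes, 2 carriers, 2 biogenesis factors and 12 mitochondrial ribosomal proteins, and DESeq2 called 1 assembly factor and 2 mitochondrial ribosomal proteins lower. At P60, 3 of 6 further subunits, inhibitors and cytochrome c genes were higher and 0 lower (median 0.48; 1 higher at P15), among them Atpif1, the inhibitor of ATP synthase hydrolysis, at 111 ± 24.6 CPM in T2MG and 66.2 ± 8.75 CPM in Control libraries (SD, n = 4; 0.75 ± 0.16, edgeR adjusted p = 0.00122). Of 48 assembly factors tested, 4 were higher and 8 lower at P60 (median -0.02), and 4 and 6 at P15 (-0.01). Ndufaf7, a methyltransferase needed to assemble complex I, stood at 24.8 ± 2.16 CPM in P60 T2MG and 57.8 ± 3.68 CPM in P60 Control libraries (-1.22 ± 0.12, edgeR adjusted p = 4.85e-07). Of 20 genes of the tricarboxylic acid cycle and pyruvate entry, 4 were higher and 2 lower at P60 (median 0.06), and 2 and 1 at P15 (0.07). Mpc1, a subunit of the mitochondrial pyruvate carrier, stood at 81.8 ± 17.9 CPM in P60 T2MG and 190 ± 27 CPM in P60 Control libraries (-1.21 ± 0.18, edgeR adjusted p = 4.78e-05). Fh1, fumarase, was higher by 0.69 ± 0.11 (edgeR adjusted p = 0.000126).

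Of 7 mitochondrial carriers and pores, 3 were higher and 2 lower at P60 (median 0.29), and 1 and 1 at P15 (-0.17). Ucp2, an inner membrane carrier, stood at 2358 ± 260 CPM in P60 T2MG and 819 ± 84.9 CPM in P60 Control libraries (SD, n = 4; 1.53 ± 0.19, edgeR adjusted p = 7.69e-06). Of 17 factors of mitochondrial gene expression and biogenesis, 3 were higher and 6 lower at P60 (median -0.18), and 0 and 3 at P15 (-0.23). Gabpb1, the partner of the ETS factor Gabpa, stood at 40.2 ± 2.67 CPM in P60 T2MG and 83.7 ± 14.1 CPM in P60 Control libraries (-1.06 ± 0.12, edgeR adjusted p = 2.88e-06), and Tfam, which packages mitochondrial DNA, was lower at P15 (-0.57 ± 0.15, edgeR adjusted p = 0.0124). Of 77 mitochondrial ribosomal proteins, 11 were higher and 7 lower at P60 (median 0.03), and 10 and 2 at P15 (0.24). Of 79 cytosolic ribosomal proteins, 70 were higher and 0 lower at P60 (0.77), 70 and 1 at P15 (0.78) and 0 and 6 at E16 (-0.45). Of 16 glycolysis genes, 5 were higher and 1 lower at P60 (0.19), 5 and 1 at P15 (0.29) and 0 and 3 at E16 (-0.33). Hk2, a hexokinase held at the outer mitochondrial membrane, was the lower gene at both, with 37.1 ± 7.12 CPM in P60 T2MG and 121 ± 12.3 CPM in P60 Control libraries (-1.71 ± 0.16, edgeR adjusted p = 3e-07).

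Markers of other cells moved with age and genotype. The 9 neutrophil and monocyte markers summed to 25287, 6681 and 21978 CPM in P15 T2MG libraries, against 8163, 4733 and 3140 CPM in P15 Control libraries, and to 538 to 832 CPM in E16 T2MG, against 270 to 1085 CPM in E16 Control libraries, with none at 0 in a whole group. Between genotypes none of the 9 was called in edgeR at any age (4 lower at an unadjusted p under 0.05 and in DESeq2 at P60, 1 higher in limma voom at P15). Over age they moved in the direction of most members. At P15 against E16, 7 were called higher in T2MG and 5 in Control libraries (29.5% and 24% of all genes). At P60 against P15, 9 were called lower in T2MG and 1 in Control libraries (9.4% and 13% of all genes). The 8 oligodendrocyte markers summed to 124 to 163, 875 to 954 and 941 to 1759 CPM in E16, P15 and P60 T2MG libraries, against 135 to 173, 257 to 495 and 300 to 387 CPM in Control libraries, with none at 0. At P60 all 8 were called higher in T2MG libraries. The 12 neuron markers summed to 959 to 1175, 45.1 to 105 and 48.1 to 65.2 CPM in T2MG libraries, against 328 to 726, 7.87 to 37.1 and 4.83 to 29.5 CPM in Control libraries, with Dcx at 0 in P15 and P60 Control libraries, and 8 were called higher at P60. Their part in the member differences was not tested. Without P60 Control 1, the P60 Control libraries held 106 to 187 CPM of the neutrophil and monocyte markers, against 208 to 762 CPM in P60 T2MG libraries.

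The remaining lists were small in these sums. The 8 astrocyte markers summed to 285 to 375, 293 to 492 and 167 to 303 CPM in T2MG libraries at the 3 ages, against 113 to 266, 243 to 503 and 214 to 271 CPM in Control libraries, with none at 0 and 7 of 8 called higher and 1 lower at P60. The 8 endothelial and pericyte markers summed to 114 to 128, 29.3 to 39.6 and 30.1 to 54.1 CPM in T2MG, against 56.9 to 114, 38.3 to 60.2 and 35.9 to 75.6 CPM in Control libraries, with Rgs5 at 0 in both P15 groups and P60 Control. None was called in edgeR, where P15 had 2 lower at an unadjusted p under 0.05, as did DESeq2 and limma voom after adjustment, and P60 had 1 lower in DESeq2 and 1 higher in limma voom. The 8 erythroid markers summed to 138 to 243, 27 to 81.6 and 98 to 323 CPM in T2MG, against 132 to 171, 15.7 to 89.6 and 45.3 to 58 CPM in Control libraries, and 5 hemoglobin genes were at 0 in all groups. Of the 3 that could be tested, 1 was called higher at P60.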

How the data were processed

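Poly-A RNA of sorted microglia from 20 mice was amplified with an ultra low input kit and sequenced, per the labels' protocols. The authors deposited 1 table of whole-number counts per gene, not normalized; TopHat2 0.7, Cufflinks 2.2.1 and the mm10 genome are named in the submitters' processing notes, and the sources used here name neither the counting tool nor its use of strand. Symbols turned into dates by a spreadsheet (27 of 24421 entries, 0.122% to 0.256% of counts) were left out.

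All 20 libraries entered 1 group-means model in edgeR 4.0.16 (R 4.3.3), with TMM scaling, filterByExpr by group and the quasi-likelihood F test, and p-values were adjusted by Benjamini-Hochberg over 15568 genes. A standard error is the log2 fold change divided by the square root of F. The biological coefficient of variation was 0.327. The fit was tested on simulated data. DESeq2 1.42.0, limma 3.58.1 (voom), other scalings, no filter, only the groups compared, a replicate block and leaving out each library were the alternatives. Libraries are separate mice, per the series' description. No 2 libraries of a group were alike within counting noise, and the labels give no batch. Summed levels carry no p-value.

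The members and all lists were chosen with earlier results of these data known. Genes named with values per library were chosen by role or isoform, or as the up to 2 called members of each complex with the smallest adjusted p in a comparison; others are marked as chosen later. Near-identical copies (at least 95% identity over 50% of the transcript, blastn 2.17.0) were found for 13 members. Amplified reads carry no molecular identifiers, so counting intervals (exact, 95%) and the floor of 3 counts cover counting error only. One tested member is counted but not reported here by name.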

Additional observations from a re-analysis of the deposited data

Results flagged for a closer look

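Within the P60 groups of 4 libraries, 20 of 110 values had 1 library far from the others by Dixon's criterion. Chance gives about 1 in 20 for independent values, but these values share libraries, so the count is no test. P60 Control 1 was the highest library for most of the 20. It stood at 1142 CPM for the sum of complex IV, and at 249 CPM for Cox4i1, 96.3 CPM for Cox5a, 4.85 CPM for Cox6b2, 1.25 CPM for Cox7a1, 65.8 CPM for Cox7a2, 48.3 CPM for Cox7b and 1.52 CPM for Cox8b. In the other complexes it stood at 123 CPM for Atp5g1, 137 CPM for Atp5g3, 78.6 CPM for Atp5l, 55.4 CPM for Ndufa11, 29.5 CPM for Ndufb2 and 65.1 CPM for Uqcr11. P60 T2MG 2 was the lowest of its group for Cox5a at 110 CPM, Cox6a1 at 142 CPM, Cox6b1 at 101 CPM and Ndufa13 at 58.3 CPM. The single counted libraries P60 T2MG 1 for Ndufa4l2 (0.211 CPM) and P60 Control 2 for Cox7b2 (0.071 CPM) had 3 counts and 1 count against 0 in the rest of their groups.

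The log2 difference of T2MG minus Control was higher at P15 than at E16, by the test of the difference itself in edgeR, for Cox6a1 (1.22 on the log2 scale), Cox5b (1.15), Cox6b1 (0.93) and Cox7a2l (0.82) of complex IV. In complex I this held for Ndufs7 (1.03), Ndufa13 (1.02), Ndufa2 (0.97), Ndufb7 (0.96), Ndufa6 (0.78), Ndufs8 (0.75) and Ndufv3 (0.62). In the other complexes it held for Sdhb (0.60), Uqcrc1 (0.60), Atp5g2 (0.75) and Atp5d (0.71), and Atp5s moved the other way (-1.49). Ndufs7 alone kept its call without each single library. Cox8b differed between P60 and P15 (4.39).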

How the results depend on the processing

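No called value of a named member, and no median over all members, changed sign under the alternatives run. The members called at E16 (2) were 1 with relative log expression scaling, 1 without the filter, 0 with only the groups compared and 0 to 4 with 1 library left out. At P15 (10) they were 17 with DESeq2, 5 with only the groups compared and 1 to 11 with 1 library left out. At P60 (38) they were 25 with only the groups compared and 21 to 61 with 1 library left out. Between P15 and E16 the Control count (62) was 49 to 64 and the T2MG count (72) 69 to 73 with 1 library left out. Between P60 and P15 the Control count (36) was 11 with only the groups compared and 8 to 53 with 1 library left out. The T2MG count (8) was 16 with relative log expression scaling, 4 without the filter, 26 with DESeq2, 15 with limma voom and 1 to 11 with 1 library left out. For the difference of the genotype effect, P15 minus E16 (16), the count was 9 with only the groups compared and 1 to 17 with 1 library left out. For P60 minus P15 (1) it was 0 without the filter, 2 with DESeq2, 2 with limma voom, 0 with only the groups compared and 0 to 13 with 1 library left out. The cause of these shifts was not tested.

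With 1 library left out, the T2MG to Control ratio of summed CPM ran over 0.82 to 0.96 at E16, 1.17 to 1.26 at P15 and 1.27 to 1.45 at P60 for all members. The ranges were 0.78 to 0.93, 1.17 to 1.25 and 1.21 to 1.39 in complex I, and 0.87 to 1.00, 1.23 to 1.28 and 1.19 to 1.28 in complex II. They were 0.82 to 0.95, 1.15 to 1.28 and 1.17 to 1.34 in complex III, 0.70 to 0.89, 1.30 to 1.44 and 1.56 to 1.91 in complex IV, and 0.86 to 0.98, 1.08 to 1.18 and 1.27 to 1.45 in complex V.

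Whether replicate numbers pair the samples cannot be decided from so few pairs per stage. Deviations of same-numbered T2MG and Control libraries correlated at 0.00701 to 0.333 at E16, -0.0345 to 0.133 at P15 and -0.0631 to 0.224 at P60. Those of differently numbered libraries correlated at -0.294 to 0.274, -0.129 to 0.125 and -0.249 to 0.19. With the number as a replicate block the counts, in the same order as above, were 2, 11, 43, 61, 72, 41, 9, 14 and 1. Among named members, 2804 values under other settings kept their side of the threshold, 78 lost a call and 59 gained one. With 1 library left out, 3036 kept their side, 300 lost a call and 48 gained one. Restricted isoforms with few counts (Cox4i2, Cox8b, Cox7a1, Ndufa4l2) are limited by depth.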
